A study of Homo sapiens with 6 samples.

Results

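The splicing regulators of epithelial-mesenchymal transition (EMT) are RNA-binding proteins that switch exons on or off as an epithelial cell takes on a mesenchymal form, and 10 of them were chosen by name: RBFOX2, MBNL1, MBNL2, MBNL3, QKI, ESRP1, ESRP2, RBM47, CELF1 and PTBP1. Each was found by its symbol in exactly 1 row of the gene table, so that 10 of 74852 listed genes were examined. The study asked what the mitotic kinase NEK2 controls in triple-negative breast cancer (TNBC) cells. MDA-MB-231, a human TNBC line with mesenchymal features, was transfected 2 times with non-targeting control siRNAs (si-CTRL, n = 3) or with pooled siRNAs that target NEK2 (si-NEK2, n = 3), and harvested 24 h after the second transfection per the labels. Both groups were the same line in the same medium and carried siRNAs, 1 pool each, so that loss of NEK2 and any other effect of the pool cannot be told apart. PolyA-enriched RNA was sequenced, and values are normalized counts, that is reads on a gene divided by the size factor of the library.

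ESRP1 and ESRP2 keep the epithelial splicing pattern and are classically repressed by the transcription factor ZEB1 during EMT. RBFOX2, QKI and the MBNL proteins bind short motifs beside exons, and RBFOX2 and QKI are known for promoting exons of the mesenchymal pattern. RBM47 is known for favouring epithelial exons and for restraining breast cancer progression, PTBP1 represses exons through pyrimidine-rich tracts, and CELF1 binds GU-rich RNA and acts on splicing, translation and decay. The table gives the summed level of a gene, not its exons, so inclusion of exons was not measured here.

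NEK2 itself matched the labels and fell from 3438 ± 229 normalized counts (SD, n = 3) in si-CTRL to 344.9 ± 54.4 (SD, n = 3) in si-NEK2, a log2 fold change of -3.32 (adjusted p = 1.86e-06, limma, adjusted by Benjamini and Hochberg across the genes tested). The libraries held between 52625492 and 87454509 reads on genes, so that 1 read stood for 0.818 to 1.25 normalized counts. In the check of the line, the mesenchymal markers FN1, VIM, SPARC and CDH2 had ranks 13, 20, 124 and 341 by mean level among 18717 genes tested. The mesenchymal marker CDH11 was lower, at 954.7 ± 161.8 normalized counts in si-CTRL (SD, n = 3). The epithelial markers CDH1, EPCAM, CLDN3 and CLDN7 and the receptor genes ESR1 and PGR had means of at most 10.8 normalized counts in both groups. The other 4 epithelial markers were counted, with KRT18 at 24840 ± 879, KRT8 at 17463 ± 1223, KRT19 at 1460 ± 65.1 and CLDN4 at 99.6 ± 6.17 normalized counts in si-CTRL (SD, n = 3 each). Of these, KRT18 did not pass the test (log2 fold change -0.02), CLDN4 fell (log2 fold change -0.74) and KRT8 (0.37) and KRT19 (0.55) rose. Of 5 mesenchymal markers CDH11 fell (-1.22) and CDH2 rose (0.66), and among 3 receptor genes ERBB2 rose (0.53). Of 6 markers of other cell types, PTPRC, CD3E, PECAM1 and CDH5 had no library above 42.5 normalized counts, ACTA2 fell from 274.6 ± 40.6 to 183.6 ± 19.0 (SD, n = 3 each) and COL1A1 was at rank 17. CDH5 also passed the test, at 30.5 ± 10.99 against 13.7 ± 2.96 (SD, n = 3 each), and in 9 of 16 alternatives, but not without si-CTRL replicate 1. COL1A1 made up most of this list, which with it summed to between 146222 and 181687 normalized counts in si-CTRL. In si-NEK2 that sum lay between 134409 and 153951. Without COL1A1 the list summed to between 295.7 and 382 normalized counts in si-CTRL and between 206.1 and 241 in si-NEK2. The part of this list in the results, with or without COL1A1, was not tested. The si-CTRL replicate 1 library stood apart from the other controls on the second principal component (38.9 against -26.1 and -21.2) and was the shallowest. Changes of QKI, MBNL1, MBNL2 and RBM47 are therefore given with and without it. Differences of ratios between regulators are also given both ways. Most values of other genes are given only with it and may rest on it too.

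Most of the regulators that these cells express moved after silencing, and they moved both ways. A gene entered the test where its 6 libraries averaged 10 normalized counts or more, which kept 8 of the 10, and MBNL3 and ESRP1 stayed below this level in every library. A gene was called changed at an adjusted p of at most 0.05 from limma, and regulated at an unadjusted p of at most 0.05 with a fold change of at least 1.5. Of the 8 tested, 6 changed, where 43.1% of all genes tested did. Expression of 4 fell (RBFOX2, ESRP2, QKI and MBNL1; 21.3% of all genes fell) and of 2 rose (RBM47 and CELF1; 21.8% of all genes rose). MBNL2 and PTBP1 did not pass. The number regulated was 4 (22.5% of all genes), of which RBFOX2, ESRP2 and QKI were lower (14.3%) and RBM47 was higher (8.23%). The 3 si-CTRL values did not overlap the 3 si-NEK2 values in 6 of the 8, where 55% of all genes tested showed no overlap. The median log2 fold change of the 8 was -0.38, that of all genes tested 0.01. Without si-CTRL replicate 1 the number regulated was 2, RBFOX2 and ESRP2, and the number changed was 7, with MBNL2 added. The share of all genes called without this library was not determined, so these counts have no background beside them. In bulk RNA, fewer cells of a type and less RNA per cell cannot be told apart, and as the labels do not state separate cultures, p-values measure the spread between these libraries.

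**Figure D1:**
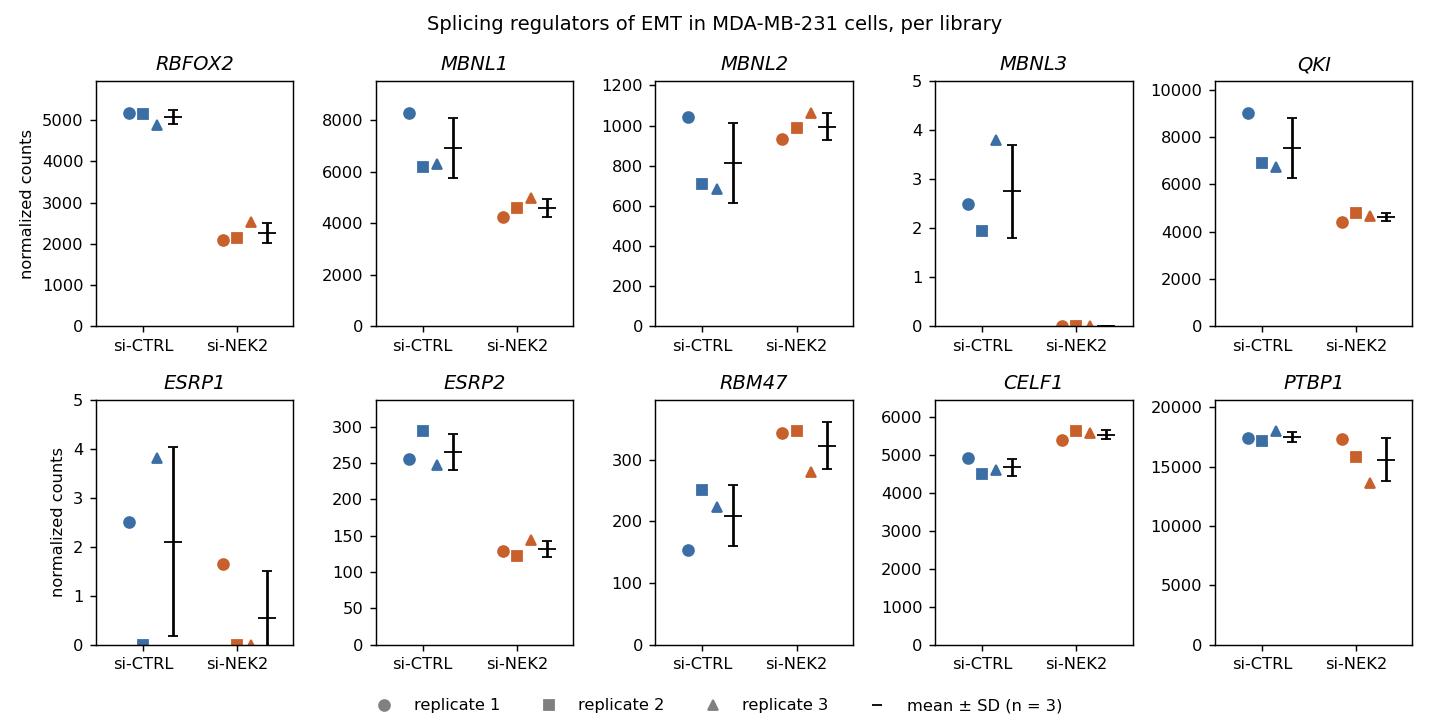
Normalized counts (y axis, from 0, own scale per gene) of each of the 10 splicing regulators in the 3 si-CTRL libraries (blue) and the 3 si-NEK2 libraries (orange), with the marker shape giving the replicate and the bars the mean ± SD (n = 3). RBFOX2, ESRP2, QKI and MBNL1 sit lower in every si-NEK2 library, CELF1 and RBM47 sit higher, and MBNL3 and ESRP1 stay under 4 normalized counts.

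RBFOX2, a reader of the GCAUG motif that activates or skips exons depending on where it binds, changed most among the 8. Its row (GSHG0020346, chr22:36134784-36424585, hg19) held 5176, 5160 and 4882 normalized counts in si-CTRL replicates 1 to 3 and 2100, 2148 and 2529 in si-NEK2 replicates 1 to 3. Every si-NEK2 library lay far under every control, and si-CTRL replicate 1 was level with the others. The mean of 2259 ± 235 (SD, n = 3) in si-NEK2 was 44.5% of the 5073 ± 165 (SD, n = 3) in si-CTRL. The log2 fold change was -1.17 (standard error 0.08, 95% interval -1.36 to -0.98, adjusted p = 2.49e-05 from limma), and 6.24% of all genes tested had a change as large in either direction. It kept this call in all 17 alternatives, with log2 fold changes from -1.30 to -1.12. Among 14437 other genes with a symbol, those with the nearest centred log2 profile over the 6 libraries were NRDC (in a row shared with MIR761), RAB28 and ZNF347, at Euclidean distances of 0.10, 0.10 and 0.11 and log2 fold changes of -1.17, -1.16 and -1.13. RBFOX1 and RBFOX3, its paralogs of neurons and muscle, had 0 reads in all libraries and at most 6 reads in any library.

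QKI, which reads ACUAA elements and also drives circular RNA formation, fell in all si-NEK2 libraries. The row GSHG0026189 (chr6:163835675-163999627, hg19) had 9024, 6888 and 6731 normalized counts in si-CTRL and 4423, 4769 and 4649 in si-NEK2. The groups did not overlap, although si-CTRL replicate 1 was well above the other controls. The mean went from 7548 ± 1281 to 4614 ± 176 (SD, n = 3 each), with 61.1% remaining. On the log2 scale the change was -0.70 (standard error 0.11, 95% interval -0.95 to -0.45, adjusted p = 0.00115 from limma). Without si-CTRL replicate 1 it was -0.56 (adjusted p = 2.11e-05), a fold change of 1.48 that no longer counted as regulated.

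The MBNL genes encode zinc finger proteins that read YGCY motifs and promote the exon choices of differentiated cells. Of the family, MBNL1 fell, MBNL2 did not pass and MBNL3 was barely counted. MBNL1 (GSHG0021257, chr3:151986257-152183568, hg19) had 8285, 6192 and 6300 normalized counts in si-CTRL against 4252, 4577 and 4962 in si-NEK2. Again si-CTRL replicate 1 was the highest library and the groups did not overlap. The mean went from 6926 ± 1179 to 4597 ± 356 (SD, n = 3 each), a log2 fold change of -0.58 (standard error 0.12, 95% interval -0.85 to -0.32, adjusted p = 0.00398 from limma). Its fold change of 1.496 lay just under the limit of 1.5, so that it counted as regulated in 8 of the 17 alternatives while it was called changed in all 17. Without si-CTRL replicate 1 the log2 fold change was -0.44 (adjusted p = 0.000388).

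MBNL2 (GSHG0045812, chr13:97794090-98046374, hg19) had 1041, 709 and 684 normalized counts in si-CTRL and 930, 989 and 1063 in si-NEK2. The groups overlapped through si-CTRL replicate 1 alone, which lay between the second and the highest si-NEK2 library. The log2 fold change was 0.32 (95% interval -0.03 to 0.67, adjusted p = 0.131 from limma). Without that library it was 0.51 and passed (adjusted p = 0.000616), so the call of MBNL2 depends on this control. MBNL3 (GSHG0032338, chrX:131503342-131623996, hg19) had 2, 2 and 4 reads in si-CTRL and 0 in each si-NEK2 library. As its counts were at or near the floor of 3 reads, no fold change is given. With no minimum mean MBNL3 entered the test and was called changed and regulated (adjusted p = 0.00752 from limma), a call that rests on these few reads.

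The balance within the family was described by the log2 ratio of 2 genes in the same library, for which 3 of 6 listed pairs had both genes tested. MBNL1 over MBNL2 was 2.99, 3.13 and 3.20 in si-CTRL and 2.19, 2.21 and 2.22 in si-NEK2. These ratios did not overlap, and si-CTRL replicate 1, the highest control for either gene, had the lowest of the control ratios. The mean ratio went from 3.11 ± 0.11 to 2.21 ± 0.02 (SD, n = 3 each), a difference of -0.90. RBFOX2 over MBNL1 went from -0.44 ± 0.22 to -1.03 ± 0.06, and RBFOX2 over QKI from -0.56 ± 0.21 to -1.03 ± 0.14 (SD, n = 3 each), and in both pairs every si-NEK2 library was below every control. Without si-CTRL replicate 1 the difference was -0.955 for MBNL1 over MBNL2. It was -0.71 for RBFOX2 over MBNL1 (-0.59 with that library) and -0.59 for RBFOX2 over QKI (-0.47 with it). The exact two-sided permutation p was 0.1 for each of the 3 pairs with all libraries, also after adjustment, which is the smallest that 3 against 3 libraries allow.

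The epithelial regulators were low throughout and did not move in a common direction. ESRP1 had 2, 0 and 4 reads in si-CTRL and 2, 0 and 0 in si-NEK2, at or near the floor of 3 reads, so a change in it was not detectable at this depth. ESRP2 (GSHG0011930, chr16:68262450-68270487, hg19, in a row shared with MIR6773) was counted, with 255, 293 and 247 normalized counts in si-CTRL and 129, 122 and 144 in si-NEK2. All si-NEK2 libraries were well below all controls. The mean went from 265 ± 24.8 to 132 ± 11.2 (SD, n = 3 each), so that si-NEK2 retained 49.7%. On the log2 scale this was a change of -1.003 (standard error 0.13, 95% interval -1.30 to -0.71, adjusted p = 0.000421 from limma), and it passed in all 17 alternatives, from -1.13 to -0.83.

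RBM47 rose. Its row (GSHG0023215, chr4:40425272-40632640, hg19) had 154, 251 and 223 normalized counts in si-CTRL and 344, 346 and 280 in si-NEK2. The groups did not overlap, with si-CTRL replicate 1 the lowest and si-NEK2 replicate 3 nearest to the controls. The mean went from 209 ± 50.1 to 323 ± 37.8 (SD, n = 3 each), a log2 fold change of 0.65 (standard error 0.19, 95% interval 0.22 to 1.07, adjusted p = 0.0217 from limma). The call was lost in 4 of the 17 alternatives, without si-NEK2 replicate 1 (adjusted p = 0.0775), without si-NEK2 replicate 2 (0.0812), with equal total scaling (0.0539) and with no mean-variance trend (0.0507). Without si-CTRL replicate 1 the log2 fold change was 0.44, a fold change of 1.36 that still passed the adjusted test (adjusted p = 0.0198). RBM47 counted as regulated in 14 of the 17 alternatives, and not without that library or with upper quartile or equal total scaling.

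The promoter windows of RefSeq (GRCh38.p14, 250 bases before to 50 after each start) cover RBM47 and 5 other regulators, MBNL1, MBNL2, MBNL3, CELF1 and PTBP1, in 20 windows. They were searched for CACCTG, the E-box that ZEB and SNAI repressors bind, on either strand (CAGGTG on the other). It was found in 1 of 20 windows, at 1 of 4 starts of RBM47, where 20.6% of all 35116 promoter windows hold it. RBFOX2, QKI, ESRP1 and ESRP2 had no window and were not searched. A match of these letters is a description and not a bound site. The window (chr4:40514532-40514831, minus strand, GRCh38.p14) is shown because it is the only match, with the E-box in capitals, its first base at -208 from the start.
RBM47: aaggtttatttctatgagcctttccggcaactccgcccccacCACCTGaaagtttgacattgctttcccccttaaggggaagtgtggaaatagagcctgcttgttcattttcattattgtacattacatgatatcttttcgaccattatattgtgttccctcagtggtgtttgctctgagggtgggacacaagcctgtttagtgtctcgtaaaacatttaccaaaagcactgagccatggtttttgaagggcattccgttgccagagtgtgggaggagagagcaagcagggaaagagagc

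The general regulators CELF1 and PTBP1 moved least. CELF1 (GSHG0005741, chr11:47487491-47574792, hg19) had 4929, 4500 and 4597 normalized counts in si-CTRL and 5391, 5617 and 5578 in si-NEK2. All si-NEK2 libraries lay above all controls by a small margin. The mean rose from 4676 ± 225 to 5529 ± 121 (SD, n = 3 each), a log2 fold change of 0.24 (standard error 0.06, 95% interval 0.10 to 0.39, adjusted p = 0.0148 from limma). This call was lost in 6 of the 17 alternatives, among them equal total scaling (log2 fold change 0.11, adjusted p = 0.181) and quantile normalization (0.16, adjusted p = 0.0727), and without si-CTRL replicate 2 (adjusted p = 0.0539), si-NEK2 replicate 2 (0.0733) or si-NEK2 replicate 3 (0.0563).

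PTBP1 (GSHG0014406, chr19:797392-812327, hg19, in a row shared with MIR4745) had 17454, 17139 and 17966 normalized counts in si-CTRL and 17296, 15831 and 13644 in si-NEK2. The groups overlapped, and the si-NEK2 libraries spread more widely than the controls. The log2 fold change was -0.17 (standard error 0.09, 95% interval -0.37 to 0.02, adjusted p = 0.141 from limma). Without si-NEK2 replicate 3, the lowest library, it was -0.08 (adjusted p = 0.456). It passed with equal total scaling (-0.30, adjusted p = 0.0210) and with quantile normalization (-0.32, adjusted p = 0.0207), of which the former shifts the median of all genes to -0.11.

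**Figure D2:**
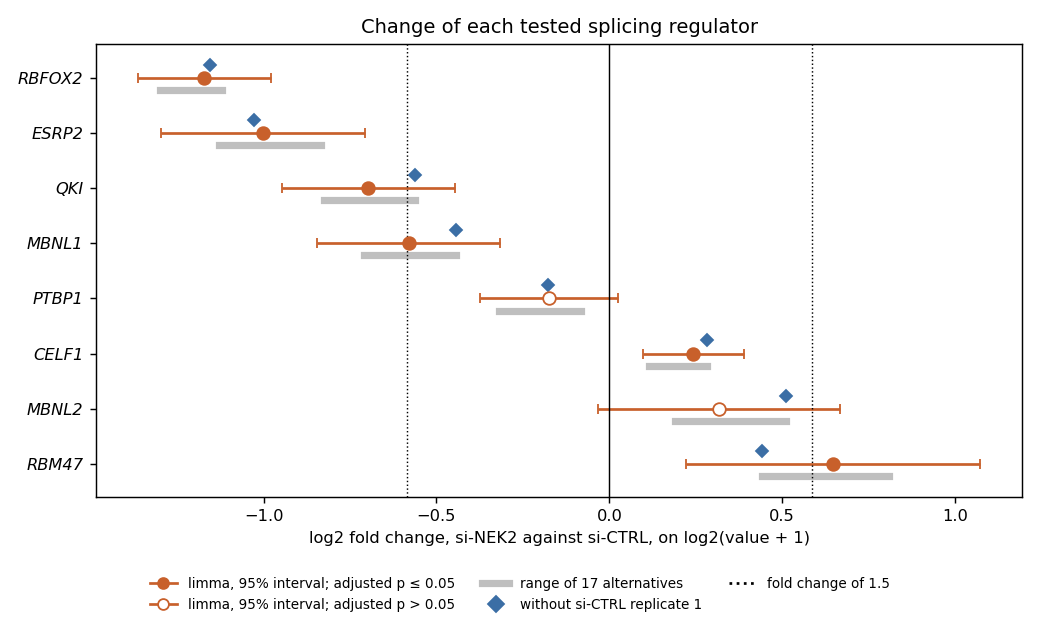
Log2 fold change of si-NEK2 against si-CTRL on log2(value + 1) (x axis) for the 8 regulators tested, with the limma 95% interval, filled where the adjusted p was at most 0.05, the range over 17 alternatives in grey, the value without si-CTRL replicate 1 as a blue diamond, and a fold change of 1.5 as dotted lines. RBFOX2 (-1.17) and ESRP2 (-1.003) lie beyond the dotted line in all alternatives, MBNL1 (-0.58) lies just inside it, and QKI (-0.70) comes inside it without si-CTRL replicate 1. RBM47 (0.65) comes inside it without that library and with upper quartile or equal total scaling.

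The share of si-CTRL replicate 1 in these values differed between the genes. Its log2 level less the mean of the other controls was 0.41 for MBNL1, 0.41 for QKI, 0.58 for MBNL2 and -0.62 for RBM47, and between -0.08 and 0.12 for RBFOX2, ESRP2, CELF1 and PTBP1. For all genes tested the 5th to 95th percentile of this difference ran from -0.75 to 0.56. The largest changes, of RBFOX2 and ESRP2, were in genes for which this library was level with the other controls.

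To compare levels between genes, normalized counts were divided by the length of the exons of each gene in GENCODE 29, which is not the annotation of the counts, and the values are therefore approximate. PTBP1 was by far the most abundant regulator, at 4738 ± 113 normalized counts per kb of exon in si-CTRL (SD, n = 3). MBNL1 (1034 ± 176), RBFOX2 (699 ± 22.8), CELF1 (521 ± 25.1) and QKI (477 ± 81.0) followed, with CELF1 and QKI within their spread of each other. MBNL2 (167 ± 41.0), ESRP2 (69.1 ± 6.46) and RBM47 (37.1 ± 8.88) were the least abundant of those tested, and ESRP1 and MBNL3 stood below 1 normalized count per kb. RBFOX2, MBNL1 and QKI exceeded the epithelial regulators ESRP2 and RBM47 in every library of both groups.

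The order of these levels differed after silencing. In si-NEK2 PTBP1 (4216 ± 497 per kb of exon) and MBNL1 (686 ± 53.1) kept the top positions, but CELF1 (617 ± 13.4) now stood above RBFOX2 (311 ± 32.4, SD, n = 3 each). RBFOX2 and QKI (292 ± 11.1) were within their spread of each other. MBNL2 was at 205 ± 13.7, and RBM47 (57.3 ± 6.70) stood above ESRP2 (34.3 ± 2.92), the reverse of their order in si-CTRL.

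**Figure D3:**
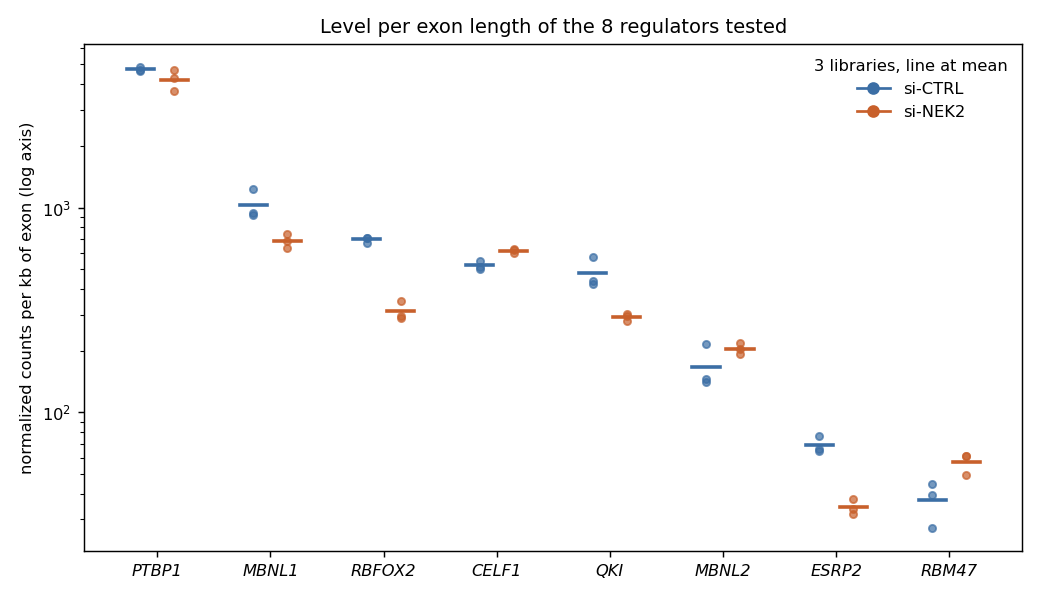
Normalized counts per kb of exon (y axis, log scale) of the 8 regulators tested in each si-CTRL library (blue) and si-NEK2 library (orange), with a line at the mean of 3 libraries and genes ordered by their level in si-CTRL. PTBP1 is highest at 4738 in si-CTRL, and RBFOX2 moves from above CELF1 to below it while ESRP2 and RBM47 change places.

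Other rows of the table lie within or across the regulators, and as the handling of strand in counting is not stated, these rows may share reads with them. Within RBFOX2 an unnamed row of 1156 bases (GSHG0020347, chr22:36234325-36235480, hg19) had 2132, 5458 and 5160 normalized counts in si-CTRL and 6488, 6877 and 6850 in si-NEK2. It was higher in every si-NEK2 library while RBFOX2 was lower, and si-CTRL replicate 1 was far under the other controls. Its log2 fold change of 0.78 did not pass (adjusted p = 0.0654 from limma), and without si-CTRL replicate 1 it was 0.34 and passed (adjusted p = 0.000427). At the start of MBNL1, MBNL1-AS1 rose from 1215 ± 24.3 to 1477 ± 39.8 (SD, n = 3 each, log2 fold change 0.28, adjusted p = 0.0113 from limma). Inside MBNL1, an unnamed row of 285 bases (GSHG0021258, chr3:152020304-152020588, hg19) rose from 35.1 ± 16.3 to 153.9 ± 25.1 (SD, n = 3 each, log2 fold change 2.20, adjusted p = 0.000874 from limma), against the direction of the gene around it. NFATC3, whose row reaches the end of the ESRP2 row, rose from 4451 ± 502 to 5761 ± 183 (SD, n = 3 each, log2 fold change 0.38, adjusted p = 0.00744 from limma) while ESRP2 fell. Of the 11 overlapping rows tested, 4 were called, all higher in si-NEK2. Of all genes tested 43.1% were called in either direction and 21.8% were called higher. An unnamed row within MBNL2 (GSHG0008234, log2 fold change 1.08, adjusted p = 0.0386 from limma) was among them and lost the call without si-CTRL replicate 1 (0.90, adjusted p = 0.0736).

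The paralogs of the regulators were mostly silent. Of 10 paralogs 4 were tested, of which 0 fell and 2 rose (43.1% of all genes tested were called), with a median log2 fold change of 0.06 against 0.01 for all genes. PTBP3, a paralog of PTBP1, rose from 7189 ± 559 to 9220 ± 405 (SD, n = 3 each, log2 fold change 0.36, adjusted p = 0.00484 from limma), a call kept in all 17 alternatives. CELF6 was called at 0.17 on the log2 scale (adjusted p = 0.0464, limma) in a row shared with HEXA and PARP6, and it kept the call in 5 of 17 alternatives. The reads of these genes cannot be told apart, so this counted rise cannot be assigned to CELF6. PTBP2, the neuronal counterpart of PTBP1, did not pass at -0.06 (adjusted p = 0.694 from limma), nor did CELF5 at -0.44 (adjusted p = 0.144 from limma).

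Among 24 other sequence-specific splicing regulators, 22 were tested, 4 fell and 3 rose, with a median log2 fold change of 0.02. The 31.8% called was below the 43.1% of all genes tested. The largest were RBPMS2, a regulator of smooth muscle, which fell from 270.5 ± 48.3 to 123 ± 14.6 (log2 fold change -1.12, adjusted p = 0.000731 from limma, n = 3 each), and KHDRBS3, a paralog of SAM68, which fell from 193 ± 11.4 to 94.5 ± 6.01 (-1.02, adjusted p = 0.000391). RBPMS, the closest relative of RBPMS2, went the other way, from 521 ± 39.6 to 692 ± 64.7 (0.41, adjusted p = 0.0134 from limma, n = 3 each), and lost the call in 3 of 17 alternatives. Leaving out single libraries moved the number called in this list between 2 and 9, and 9 were called without si-CTRL replicate 1. For these settings the share of all genes called was not determined.

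Of 9 transcription factors of EMT, 7 were tested, 3 fell and 0 rose, with a median log2 fold change of -0.48. The 42.9% called was at the level of all genes tested (43.1%, with 21.3% lower). ZEB2 fell from 2410 ± 587 to 785 ± 128 (log2 fold change -1.60, adjusted p = 0.000173 from limma, n = 3 each). ZEB1 fell from 5146 ± 762 to 2900 ± 69.9 (-0.82, adjusted p = 0.000340) and SNAI2 from 1234 ± 320 to 739 ± 29.8 (-0.71, adjusted p = 0.00682). These 3 repressors of epithelial genes kept their calls in all 17 alternatives. Their decrease stood beside the increase of RBM47 and beside an ESRP2 that fell and an ESRP1 that stayed near 0 reads, and no relation between them was tested. SNAI1, TWIST1, TWIST2 and OVOL1 did not pass, and the epithelial factors GRHL2 and OVOL2 had 0 normalized counts in all libraries.

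All 12 genes known for exons that switch in EMT were tested, of which 3 fell and 4 rose, with a median log2 fold change of 0.14. In this list 58.3% were called, against 43.1% of all genes tested (21.3% lower and 21.8% higher). The 3 of 12 that fell are near this background. The 4 of 12 that rose are a larger share than in all genes, and this difference was not tested. The gene-level change of FGFR2, whose exons IIIb and IIIc mark the epithelial and mesenchymal states, was an increase from 59.3 ± 13.2 to 149.3 ± 23.7 (log2 fold change 1.33, adjusted p = 0.00114 from limma, n = 3 each). Its row covers a long stretch (chr10:122483324-123535190, hg19), and whether all its reads come from FGFR2 was not determined. CTNND1, which encodes p120 catenin and shares a row with TMX2, rose from 5436 ± 285 to 9555 ± 223 (0.81, adjusted p = 3.73e-05). CD44, a hyaluronan receptor with variant exons under ESRP1 control, fell by 0.76 on the log2 scale (adjusted p = 0.00332 from limma). The number called in this list was 11 without si-CTRL replicate 1, a setting for which the share of all genes called was not determined.

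**Figure D4:**
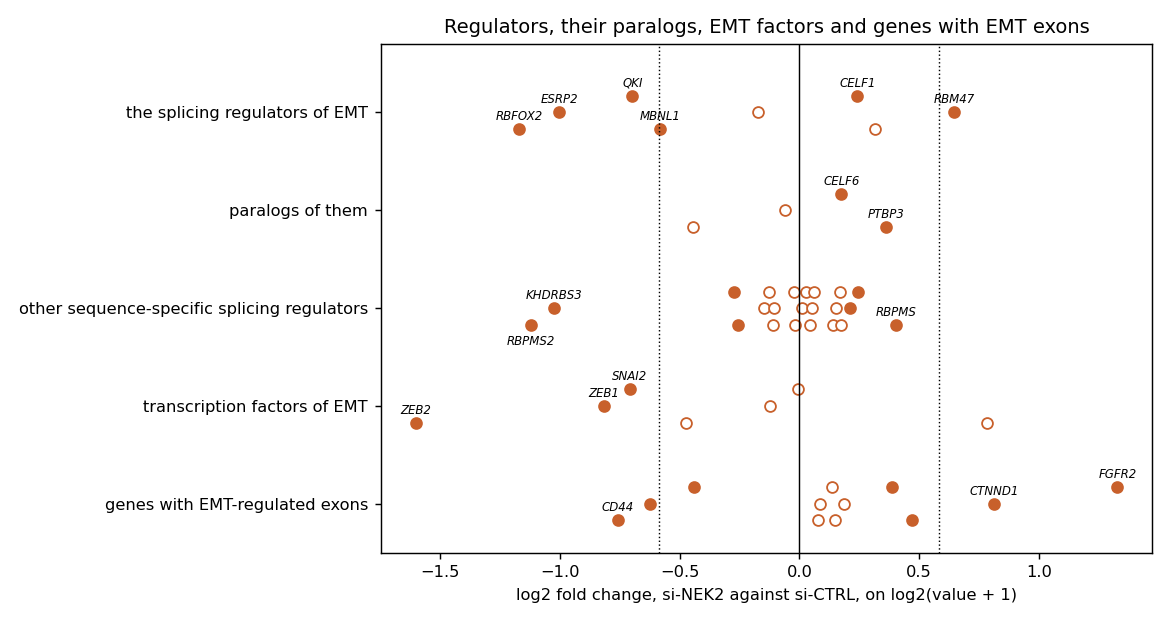
Log2 fold change of si-NEK2 against si-CTRL on log2(value + 1) (x axis) of the tested splicing regulators of EMT, their paralogs, other splicing regulators, transcription factors of EMT and genes with EMT-regulated exons (rows, points spread vertically for legibility), filled where the adjusted p was at most 0.05 (limma), with a fold change of 1.5 as dotted lines. Names are given for the called regulators of EMT and for up to 3 called genes with the largest change in each other list, and the values run from -1.60 for ZEB2 to 1.33 for FGFR2.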

How the data were processed

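MDA-MB-231 cells gave polyA-enriched RNA for 3 si-CTRL and 3 si-NEK2 libraries, grouped by the sample titles. The authors deposited a gene signal per library, that is reads per gene divided by the DESeq2 size factor, with FAST DB annotation and hg19 coordinates and without pooling replicates. The submitters' processing notes name STAR 2.4.0, SAMtools, Picard, FastQC and DESeq2. The counter and its strand setting are not given in the sources used here, and a stranded kit was used. The harvest time and the RNA kit differ between the labels and the methods, and no source says whether both groups shared a batch. The deposited values were whole multiples of 1 read in 100% of cases within 0.01 of a read, which gave back the reads.

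The 10 genes, the other lists and the named genes were chosen with earlier results of these data known, and no test was run over a list. Genes with a mean of at least 10 were tested (18717 of 74852, of which 14438 have a symbol) in R 4.3.3 with limma 3.58.1 (lmFit, eBayes with a trend) on log2(value + 1), a scale that understates changes of low genes, with Benjamini-Hochberg adjustment over all genes tested. The thresholds for regulated genes, 0.05 and 1.5, follow the study's methods. Named were all 10 regulators, NEK2, up to 3 called genes of largest change per list, genes that check the cell line, the 3 profiles nearest to the gene of largest change, and rows overlapping a regulator, with the uncalled PTBP2, CELF5, SNAI1, TWIST1, TWIST2, OVOL1, GRHL2 and OVOL2 and the unexpressed RBFOX1 and RBFOX3 added after their values were seen. Ratios were tested with exact permutation tests (scipy 1.17.1). In 17 alternatives the pseudocount was 0.1 or 5, the minimum mean was dropped or set to 50, values were scaled by upper quartile, equal totals or quantiles, the trend was omitted, replicate number was a block, single libraries were omitted, or the recovered reads were tested with edgeR 4.0.16 or DESeq2 1.42.0. The alternatives for ratios, lists and overlapping rows were chosen after seeing the data. The fit was tested on simulated data.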

Additional observations from a re-analysis of the deposited data

How the results depend on the processing

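The numbers of regulators called changed (6) and regulated (4) held within 1.5 times in 17 alternatives, except that 2 were regulated without si-CTRL replicate 1. With each library left out in turn, the number regulated ran from 2 to 5 and the number changed from 4 to 7. With no minimum mean 5 were regulated and 7 changed, as MBNL3 then entered the test. The share of all genes called was not determined in the alternatives. NEK2 fell in all 17, with log2 fold changes from -3.42 to -3.19 over libraries left out. Over NEK2 and the 8 regulators tested, 140 of 153 values kept their direction and call, 10 lost the call and 3 gained it, and no direction reversed. Same-numbered libraries deviated from their group means with correlations of -0.09, 0.05 and -0.15. As differently numbered libraries were not compared, these values cannot decide whether replicate numbers pair the libraries. With the replicate number as a block 4 were regulated and 5 changed, with CELF1 at an adjusted p of 0.0505 (limma), and NEK2 stayed at -3.32. The counts of other lists ran from 1 to 2 for paralogs, 2 to 9 for other splicing regulators, 3 to 4 for transcription factors and 7 to 11 for genes with EMT-regulated exons. On the recovered reads, edgeR and DESeq2 kept all 6 calls. Depth limits MBNL3 and ESRP1, for which 3 reads stand for 2.46 to 3.75 normalized counts, and these limits cover counting error only.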
